A study of Drosophila melanogaster with 2 samples.

Results

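Binding of the CG8388 product was examined at 10 genes of dorsoventral patterning and the early mesoderm: dl, twi, sna, tin, htl, rho, sog, zen, dpp and brk. The genes were taken by name and make up 10 of 13945 protein-coding genes on the 6 chromosome arms that carry peaks. The chromatin came from whole Drosophila melanogaster embryos of both sexes, collected from 0 to 14 h, of a stable transgenic line that expresses CG8388 with GFP at its C-terminus. DNA was precipitated with an anti-GFP antibody and sequenced (ChIP-seq). The series holds 2 libraries of this 1 group, labelled biological replicates 2 and 3. The promoter that drives the transgene is not given in the sources used here, and the analysis included neither input DNA nor chromatin of embryos without the tag. Each collection mixes all cell types and stages of the first 14 h, so a peak cannot be placed in ventral, lateral or dorsal cells, or at the time when these genes act.

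The dorsoventral axis of the fly embryo is set by Dorsal (dl), a transcription factor of the NF-kappaB family whose nuclear level is highest on the ventral side. High levels activate twi and sna, which specify mesoderm, and lower levels activate rho, sog and brk in the lateral neuroectoderm. Dorsal also represses zen and dpp, which are thereby limited to the dorsal side, where Dpp acts as a bone morphogenetic protein (BMP) signal. The genes tin and htl act later, in the mesoderm that twi and sna specify. Many of these genes are known for enhancers that lie in introns or several kilobases from the promoter.

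The sequence under the strongest peaks at these genes is printed here. The 300 bases around the summit (the position of highest signal in a peak) are given for the highest promoter peak and the highest other peak, at tin and brk. Reference sequence is that of RefSeq, Release 6 of the fly assembly (the dm6 build), on the plus strand, 5′ to 3′. Capitals mark matches to the 8 motifs listed further on, and a run without capitals holds none.
tin, chr3R:21378601-21378900: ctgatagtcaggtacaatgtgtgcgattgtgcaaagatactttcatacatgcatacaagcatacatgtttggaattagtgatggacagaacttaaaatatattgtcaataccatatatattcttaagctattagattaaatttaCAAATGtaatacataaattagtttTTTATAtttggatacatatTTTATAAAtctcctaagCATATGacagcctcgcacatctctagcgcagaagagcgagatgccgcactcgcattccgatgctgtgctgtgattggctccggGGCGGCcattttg
brk, chrX:7307063-7307362: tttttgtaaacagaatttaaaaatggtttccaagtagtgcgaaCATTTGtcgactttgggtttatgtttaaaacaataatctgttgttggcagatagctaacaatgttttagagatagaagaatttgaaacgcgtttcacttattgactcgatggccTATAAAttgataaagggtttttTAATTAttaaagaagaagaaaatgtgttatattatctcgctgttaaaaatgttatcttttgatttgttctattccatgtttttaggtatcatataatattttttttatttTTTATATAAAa
The tin window had 36.7% GC and the brk window 25.7%. Shorter windows of 101 bases centred on the next 6 summits by signal, at dpp, sog, htl and dl, are set side by side to show their shared A and T content.
dpp, intron 1, chr2L:2433578-2433678: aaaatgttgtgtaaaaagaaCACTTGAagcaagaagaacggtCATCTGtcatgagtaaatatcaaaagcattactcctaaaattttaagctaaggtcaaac
sog, summit 7043 bp from the TSS, chrX:15619447-15619547: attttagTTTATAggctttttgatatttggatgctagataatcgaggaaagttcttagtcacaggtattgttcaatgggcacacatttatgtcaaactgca
htl, intron 1, chr3R:18049664-18049764: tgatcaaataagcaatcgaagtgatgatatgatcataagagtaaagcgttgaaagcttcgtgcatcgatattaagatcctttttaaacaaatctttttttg
dl, upstream, chr2L:17450911-17451011: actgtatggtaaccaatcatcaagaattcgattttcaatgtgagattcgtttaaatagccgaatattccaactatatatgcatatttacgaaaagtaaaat
sog, summit 10945 bp from the TSS, chrX:15615545-15615645: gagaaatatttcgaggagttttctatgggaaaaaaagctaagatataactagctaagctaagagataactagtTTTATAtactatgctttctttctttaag
sog, summit 3484 bp from the TSS, chrX:15623006-15623106: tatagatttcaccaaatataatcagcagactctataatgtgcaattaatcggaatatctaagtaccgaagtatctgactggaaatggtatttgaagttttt
The GC content of these 6 windows lay between 28.7% and 33.7%.

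Most of these genes carried CG8388 peaks, and at a limit of 500 bp the share with a promoter peak was close to that of other genes. The authors' list thresholded on reproducibility holds 6075 peaks, which are the highest by signal of the list pooled from both replicates. A peak in it need not be listed in each replicate. In this list, 16 summits lay in one of the 10 genes or within 5 kb of one of their transcription start sites (TSSs). This stretch is called the territory below. These summits belonged to 9 of the 10 genes, all but sna, compared with 46.9% of the 13935 other protein-coding genes. A summit within 500 bp of a TSS, here called a promoter summit, was found at 2 of the 10 genes, tin and htl (20%, Wilson 95% interval 5.67 to 51), compared with 20.4% of other protein-coding genes. The share at promoters was thus close to that of other genes at this limit. With a limit of 1000 bp it was not, as 5 of the 10 genes then had a promoter summit, compared with 24.1% of others.

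The shares differed most for peaks away from promoters. A summit over 500 bp from every protein-coding TSS, and nearer to a TSS of the listed gene than to that of any other protein-coding gene, was found for 8 of 10 genes (80.0%, Wilson 95% interval 49.0 to 94.3), compared with 14.3% of other protein-coding genes. The exceptions were tin and twi. In the leading 6075 peaks of replicate 2 alone the count was 7 of 10, compared with 14.2% of other protein-coding genes, and in those of replicate 3 alone it was 4 of 10, compared with 14.0%. The gap to other genes was therefore smaller in replicate 3, where sna, sog, dpp and brk had such a summit. With a limit of 1000 bp in the thresholded list, 5 of 10 genes had a non-promoter summit of this kind, compared with 12.1% of others. No test over the list was made, because the genes were listed with earlier results of these data known.

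**Figure D1:**
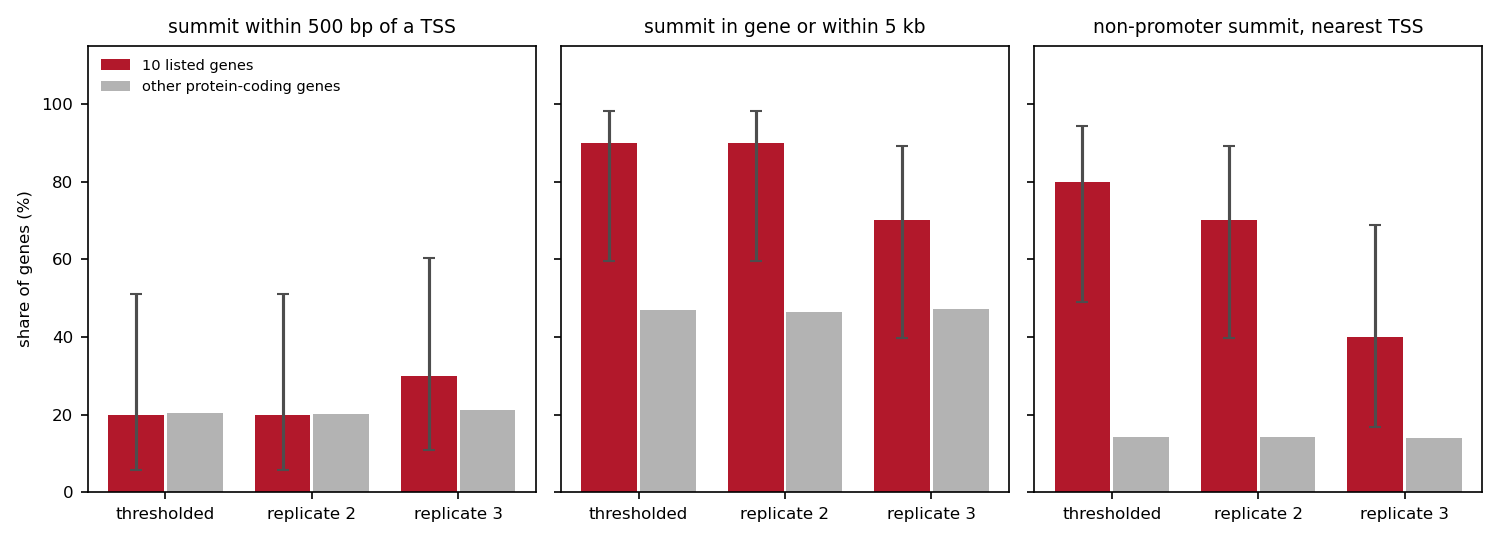
Share of genes with a summit of each kind (%) in the thresholded list and in the leading 6075 peaks of each replicate, for the 10 listed genes (red, bars with Wilson 95% intervals for counting error) and the 13935 other protein-coding genes (grey). At the 500 bp limit used here, the promoter shares are close (20% and 20.4% in the thresholded list), whereas the non-promoter shares are far apart (80.0% and 14.3%). Both depend on that limit.

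The listed genes also lay further from their neighbours, so that more sequence was nearest to their TSSs. The stretch nearest to their TSSs and over 500 bp from any TSS had a median of 15.7 kb, compared with 3.25 kb for other protein-coding genes. Per length of such sequence, the listed genes together had 0.906 thresholded summits per 10 kb (16 summits in 176.6 kb) and other genes 0.321 per 10 kb (3810 summits). The ratio was 2.82, for which no interval was computed. These are not the same 16 summits as those in the territories. They leave out the promoter summits and the twi summit, which was nearest to another gene, and include 3 beyond the territories. The density was highest at zen (4.23 per 10 kb), brk (2.63), sog (1.49) and dl (1.32), and at htl (0.351) it was near that of other genes. The zen value rested on 2 summits in 4.73 kb and the dl value on 1 in 7.56 kb. In the leading list of replicate 3, neither zen nor dl had such a summit. In the territories, which include promoters, the density was 0.712 per 10 kb (Poisson 95% interval 0.407 to 1.16), compared with 0.504 per 10 kb in the territories of other genes, a difference within the counting interval.

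**Figure D2:**
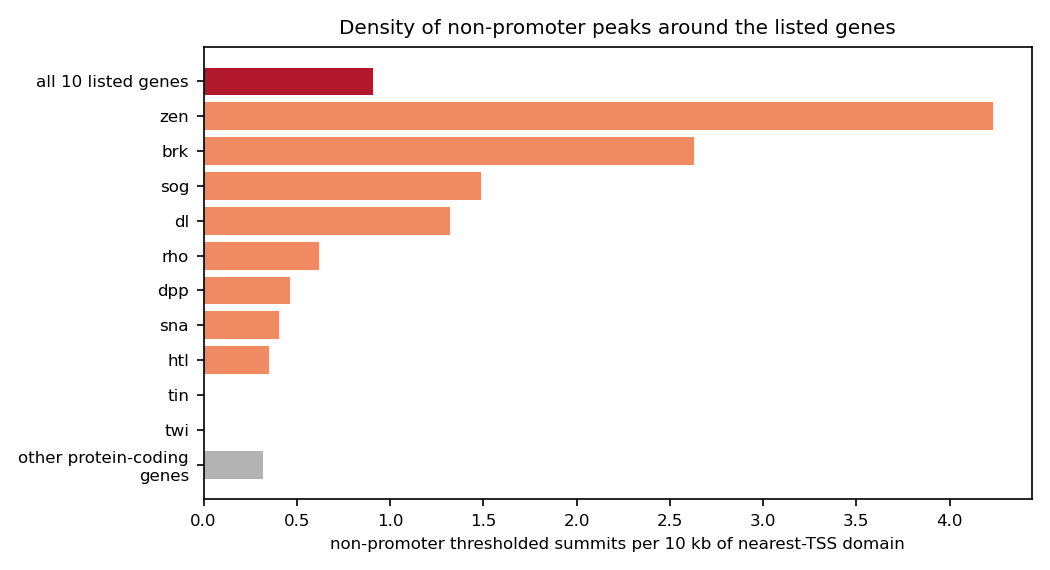
Thresholded summits over 500 bp from every protein-coding TSS, per 10 kb of the sequence whose nearest protein-coding TSS is that of the gene. The bars for the 10 listed genes together (red) and singly (orange) stand above the bar for other protein-coding genes (grey), which is at 0.321. The exceptions are tin and twi, with 0 summits, and htl comes closest to it at 0.351. The bars of dl, sna, htl and rho rest on 1 summit each, and those of zen and dpp on 2. In stretches of this length 1 summit is enough to put a bar above the grey one, so the single bars are descriptions only.

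The remaining counts place the peaks within the genes. Of the 16 territory summits, 2 lay within 500 bp of a TSS of any protein-coding gene (12.5%, Wilson 95% interval 3.5 to 36.0). These were the promoter summits of tin and htl. The same held for 41.3% of the 5437 summits in the territories of other protein-coding genes. That share includes summits at the promoter of a neighbouring gene, and the listed genes lay further from their neighbours. Of the 16, 9 lay inside the listed gene, each in an intron of every overlapping transcript, and 7 lay outside it. In 15 of the 16, the nearest protein-coding TSS was that of the listed gene. Another 3 thresholded summits, of sna and brk, were nearest to a listed gene but beyond its territory, which makes 19 in all. The median rank of the 16 in the thresholded list was 2859, close to the median of 3038 over all thresholded summits, and 2 of the 16 were among the first 500 of 6075.

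**Figure D3:**
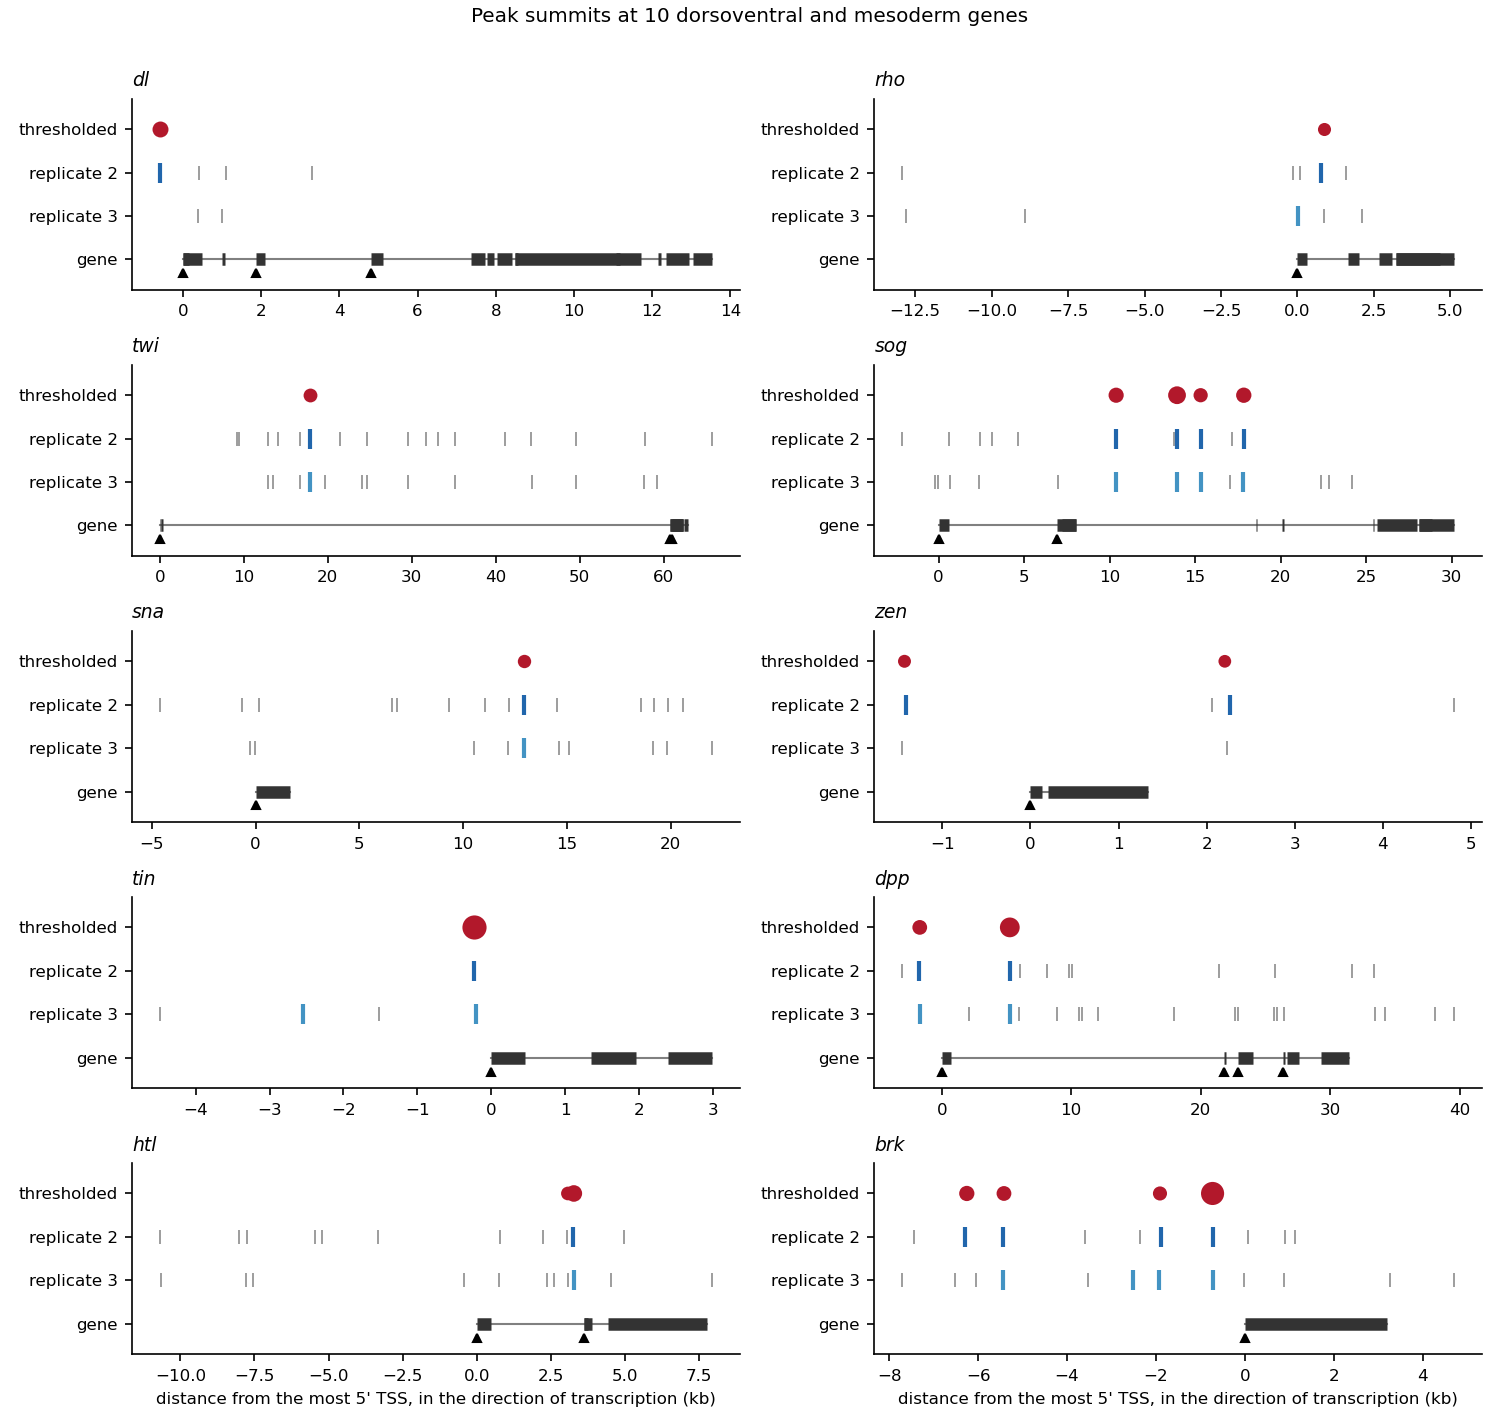
Summits at each listed gene, by distance from its most 5′ TSS in the direction of transcription (kb). Red circles are thresholded summits, with an area that grows with the signal; thick blue marks are replicate summits among the leading 6075 of that list, thin grey marks are lower-ranked replicate summits, black boxes are exons and triangles TSSs. All sog and dpp summits and 3 of the 4 brk summits have thick marks in both replicates, and the dl summit has no mark beside it in replicate 3.

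The gene dl itself, which encodes the Dorsal protein (FBgn0260632, 2L from 17436830 to 17450364, minus strand), had 1 thresholded peak. It spanned 2L from 17450911 to 17451062, with its summit 597 bp upstream of the most 5′ TSS and just outside the promoter window. Its signal was 309.8 (the authors' own value, on a scale that is not stated), with rank 2173 of 6075. Replicate 2 had an overlapping peak at rank 2538, and replicate 3 listed none among its 30000 peaks. The dl peak was thus present in replicate 2 and not listed in replicate 3. The start of the noncoding RNA CR46204 lay 467 bp from this summit. A weaker summit of the pooled list stood 409 bp downstream of the dl TSS, at rank 7941 and below the threshold.

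The mesoderm regulators twi and sna had few peaks close to their promoters. The gene twi encodes a basic helix-loop-helix activator (FBgn0003900, 2R from 22985374 to 23048325, plus strand), and its territory of 70.95 kb was the longest of the 10. Its 1 thresholded summit, at 2R position 23003274, lay 17900 bp downstream of the most 5′ TSS, in an intron of 60401 bp of the single transcript that starts there. The nearest protein-coding TSS was that of CG9896, at 4390 bp. The peak ranked 3974 in the thresholded list (signal 192.8), 5227 in replicate 2 and 3354 in replicate 3. The territory held 19 pooled summits, 0 of them at a twi promoter. Without the distant TSS the twi territory held 0 thresholded summits and 8 of the 10 genes had one, a setting chosen after seeing the data.

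The gene sna encodes a zinc finger repressor of neuroectodermal genes in the mesoderm (FBgn0003448, 2L from 15476593 to 15478260, minus strand). It had 0 thresholded summits within 5 kb. The nearest one, on 2L from 15465130 to 15465529, lay 12930 bp downstream of the TSS and outside any protein-coding gene. The next protein-coding TSS was that of Tim17b2 at 19399 bp, but the start of the noncoding RNA CR44863 was far nearer, at 2076 bp. This peak ranked 4662 in the thresholded list (signal 168.7), 5989 in replicate 2 and 3991 in replicate 3, so that both replicates had it among their leading 6075 peaks. At the sna promoter a pooled summit 101 bp upstream of the TSS had rank 14194 and a signal of 58.2, far below the threshold.

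The later mesoderm genes tin and htl were the 2 with promoter peaks. The gene tin encodes a homeodomain factor needed for the heart and the visceral muscles (FBgn0004110, 3R from 21378977 to 21381970, plus strand). Its peak, on 3R from 21378605 to 21378923 with the summit 227 bp upstream of the TSS, was the highest of the 16, with rank 334 and a signal of 916.4. It ranked 750 in replicate 2 and 186 in replicate 3. Among the 2249 thresholded summits at promoters it ranked 181. The next protein-coding TSS, that of mod(mdg4), was 1349 bp away. Replicate 3 listed a further leading peak upstream of tin, at rank 3125, whose summit was nearer to mod(mdg4), at 974 bp.

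The gene htl encodes a fibroblast growth factor receptor used by spreading mesoderm cells (FBgn0010389, 3R from 18045216 to 18052984, minus strand). Its 2 thresholded summits lay in the first intron, 200 bp apart, and their peaks overlapped by 73 bp. The stronger, on 3R from 18049618 to 18049818, was 348 bp upstream of the inner TSS, with rank 1831 (signal 347.4), 1444 in replicate 2 and 2593 in replicate 3. The weaker, 548 bp upstream of the same TSS, had rank 4184, and the replicate peaks with the closest summits ranked 9990 in replicate 2 and 6720 in replicate 3. These 2 summits stood on either side of the 500 bp limit, with that of dl, at 597 bp, next outside it. At the outer, most 5′ TSS of htl the promoter had no thresholded summit, and a pooled one 488 bp upstream of it ranked 20422.

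The neuroectoderm genes sog and brk held 6 of the 16 territory summits. The gene sog encodes a secreted BMP antagonist related to vertebrate chordin (FBgn0003463, X from 15603283 to 15633434, minus strand). All 4 of its thresholded summits lay within a single intron of 10523 bp, over a span of 7461 bp. Counted from the nearer TSS, they stood 3484, 7043, 8424 and 10945 bp downstream. In that order they ranked 2702, 1359, 3521 and 2585 in the thresholded list, 2680, 1615, 5193 and 3832 in replicate 2, and 2802, 1298, 2786 and 1999 in replicate 3. All 4 were thus among the leading 6075 peaks of both replicates, with replicate summits at most 29 bp from the thresholded ones. Of the other protein-coding genes, 3.63% had 4 or more thresholded summits in the territory. Their territories had a median of 10 kb, however, and that of sog spanned 35.15 kb. Per 10 kb, the sog territory held 1.14 summits, compared with 0.504 in the territories of other genes. The 2 sog TSSs had only lower-ranked pooled summits, of which the highest within 500 bp had rank 15248.

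The gene brk encodes a repressor of genes that the Dpp signal activates (FBgn0024250, X from 7307939 to 7311132, plus strand). Of its 4 upstream summits, 2 lay within the territory, 727 and 1910 bp from the TSS, and 2 lay beyond it, at 5419 and 6255 bp. All 4 were inside the second intron of CG1677, whose own TSSs were further away. The summit at 727 bp, in a peak of 552 bp on X from 7306943 to 7307494, was the second highest of the 16, with rank 412 and a signal of 825.3. It ranked 191 in replicate 2 and 1422 in replicate 3, the opposite order to tin. The other 3, from near to far, ranked 3665, 2971 and 2640 in the thresholded list. Replicate 2 placed them at 3148, 3827 and 1271, and replicate 3 at 4398, 2669 and 7383. The farthest peak was therefore among the leading 6075 of replicate 2 and not of replicate 3, where the overlapping summit stood 200 bp away. Of other protein-coding genes, 1.78% had 4 or more non-promoter thresholded summits nearest to them, as brk and sog did. That share takes no account of length. The stretches nearest to the brk and sog TSSs were 15.2 and 26.8 kb, compared with a median of 3.25 kb for other genes.

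The gene rho encodes an intramembrane protease that releases ligands of the epidermal growth factor receptor (FBgn0004635, 3L from 1463811 to 1468944, plus strand). Its 1 thresholded summit lay 859 bp downstream of the TSS, in the first intron of rho and the third intron of Ptp61F, with rank 5166 and a signal of 154.9. The matching peak ranked 3939 in replicate 2, with its summit 86 bp away, and 6779 in replicate 3. The leading rho peak of replicate 3 was instead at the promoter, with its summit 11 bp downstream of the TSS and rank 4340. The pooled list had a rho promoter summit 143 bp upstream of the TSS at rank 7307. The replicates thus placed their leading rho peak at different positions.

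The dorsal genes dpp and zen, which Dorsal represses, differed in the strength of their peaks. The gene dpp encodes the BMP ligand (FBgn0000490, 2L from 2428372 to 2459823, plus strand). Its stronger peak, on 2L from 2433506 to 2433787, had its summit 5256 bp downstream of the most 5′ TSS in an intron of 26006 bp. It ranked 833 (signal 560.8), with 1162 in replicate 2 and 668 in replicate 3. The other summit lay 1697 bp upstream of the gene and ranked 3016, with 3892 in replicate 2 and 2607 in replicate 3. Both dpp peaks were among the leading 6075 of both replicates. CG44139 had its TSS 1878 bp from the upstream summit, only slightly further than that of dpp, and the start of the noncoding RNA CR44912 was nearer, at 1206 bp.

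The gene zen encodes a homeodomain factor of the amnioserosa, the extraembryonic tissue of the fly (FBgn0004053, 3R from 6752864 to 6754194, minus strand). Its 2 thresholded summits flanked the gene, 1429 bp upstream and 2206 bp downstream of the TSS. They were near the end of the list, with ranks 5401 and 5845 and signals of 149.6 and 139.3. Replicate 2 had them at ranks 4876 and 5137, and replicate 3 at 7789 and 8144, outside its leading 6075. No pooled summit, of any rank, lay within 500 bp of the zen TSS.

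With weaker peaks included, most of the 10 genes had a promoter summit. In the pooled list of 30000 peaks, 8 of 10 genes had a promoter summit, all but twi and zen, compared with 47.0% of other protein-coding genes. Both shares include genes with a thresholded promoter summit, such as tin, which had no other promoter summit in the pooled list. A pooled territory summit was found at 10 of 10 (75.4% of others), and a pooled non-promoter summit of the nearest-TSS kind at 8 of 10 (35.1% of others). Of the 75 pooled summits in the territories, 21.3% (Wilson 95% interval 13.6 to 31.9) passed the threshold, compared with 21.1% of those in the territories of other protein-coding genes.

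The replicates shared most of these peaks. Of the 16 territory peaks, 16 overlapped a leading peak of replicate 2 and 12 a leading peak of replicate 3, by at least 1 bp. The 12 in both (75%, Wilson 95% interval 50.5 to 89.8) compare with 73.9% of all thresholded peaks. The 4 that were not shared were those of dl and rho and both of zen. The weaker htl peak counted as shared because its interval touches the leading peaks of its stronger neighbour, and with summits required to lie within 100 bp, 11 of 16 were shared. The thresholded list was made from these libraries, so this overlap is a description and not independent evidence. By gene, the leading lists had a promoter summit at 2 of 10 in replicate 2 (20.3% of others) and 3 of 10 in replicate 3 (21.3% of others), and a territory summit at 9 of 10 (46.4% of others) and 7 of 10 (47.1% of others). The genes without a leading territory summit in replicate 3 were dl, sna and zen.

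**Figure D4:**
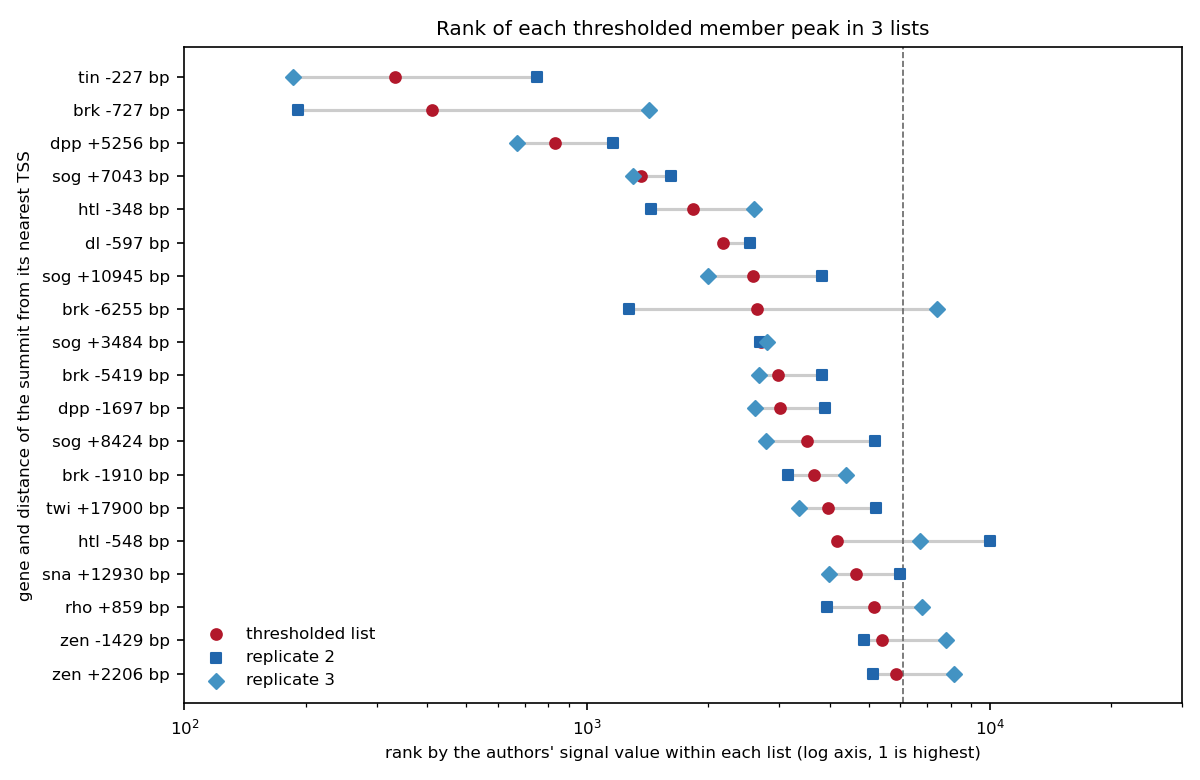
Rank by signal (log axis, 1 is highest) of each of the 19 thresholded peaks in the thresholded list and of the overlapping peak with the closest summit in each replicate, labelled by gene and by distance from its nearest TSS (minus is upstream). The dashed line marks rank 6075. The tin and brk peaks lead, both zen peaks and those of rho and the farthest brk summit pass the line in replicate 3, the weaker htl peak passes it in both replicates, and dl has no point for replicate 3.

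The summits of these genes lay in A and T rich sequence, like the others. GC content within 50 bp was 31.4% ± 8.02 (SD over 16 summits), compared with 31.6% ± 9.34 over all 6075 thresholded summits. At 400 bp to each side it was 45.2% ± 8.13 around the 16 summits, and 43.8% ± 7.25 around all. The GC content was below that of the flanks at 14 of the 16, and at 83.1% of all thresholded summits (5046 of 6075), a similar share. It was lowest at tin, with 17.8%, as the sequence printed above shows, and highest at rho, with 48.5%, where the flanks had 40.6%. The upstream zen summit, with 46.5% and flanks of 29.2%, was the other exception.

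**Figure D5:**
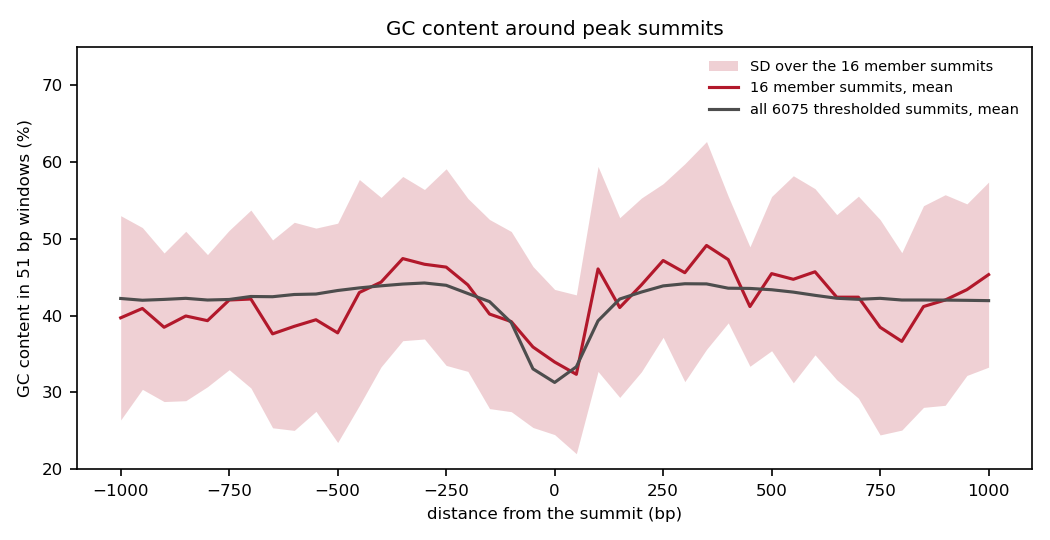
Mean GC content (%) in windows of 51 bp by distance from the summit, for the 16 territory summits (red line, with the SD over summits as a band) and all 6075 thresholded summits (grey line). Both lines dip near the summit, to 33.95% and 31.29% at the centre.

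Motifs of the dorsoventral regulators were searched within 50 bp of each summit on both strands. The degenerate Dorsal consensus matched 0 of 16 windows, compared with 0.346% of all thresholded summits, and GGCGNC, which holds sites of Brinker and of the BMP mediator Mad, matched 0 of 16 and 4.41%. CANATG, which contains the Twist sites CATATG and CACATG, matched 3 of 16, at tin, dpp and zen, and 18.5% of all. CACTTNA, for Tinman, matched 2 of 16, at dpp and brk, and 7.09% of all. CAGGTG, for Snail, matched 1 of 16, at twi (1.86% of all), and CAGGTAG, for the early activator Zelda, matched 1 of 16, at the upstream zen summit (0.477% of all). The homeodomain core TAATTA matched 2 of 16, at sog and brk (11.6% of all), and TATAAA matched 5 of 16 (25.9% of all). The Wilson 95% interval over the 16 windows contained the share of all summits for 7 of the 8 motifs, the exception being CAGGTAG, with 1 match (interval 1.11 to 28.3). Within 100 bp of the summit, GGCGNC matched 3 of 16 (10.4% of all), CANATG 6 of 16 (34.1% of all), CACTTNA 4 of 16 (14.8% of all), TAATTA 4 of 16 (19.6% of all) and TATAAA 9 of 16 (40% of all). The Dorsal consensus matched 0 of 16 there too (1.07% of all), and CAGGTG (3.93% of all) and CAGGTAG (0.823% of all) matched 1 of 16 each. A window without a match says only that these letters are not in it. In the tin window printed above, a CAAATG began 5 bp before the summit and TATAAA matches followed from 19 bp after it.

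Of other genes of the same pathways, more had a non-promoter summit than a promoter summit, except in the Toll list, where the counts were equal. The 4 further lists held 75 genes, all matched by symbol or synonym, of which 20 (26.7%) had a thresholded promoter summit, 49 (65.3%) a territory summit and 40 (53.3%) a non-promoter summit of the nearest-TSS kind, beside the 20.4%, 46.9% and 14.3% of protein-coding genes given above. The promoter counts were 4 of 14 for the maternal Toll pathway that controls Dorsal, 7 of 23 for the BMP pathway and dorsal ectoderm, 2 of 13 for neuroectoderm and mesectoderm, and 7 of 25 for mesoderm. With the leading list of replicate 2 alone they were 4, 2, 2 and 7, and with that of replicate 3 alone 4, 8, 4 and 7, so the BMP and neuroectoderm counts depended on the library. The non-promoter counts of the 4 lists in the thresholded list, in the same order, were 4 of 14, 13 of 23, 8 of 13 and 15 of 25. The shares of these 75 genes were not set against the length of sequence around them. Of all thresholded summits, 37.0% lay within 500 bp of a protein-coding TSS, so most lay away from promoters in any case.

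In the Toll pathway the highest promoter summits were those of cact, the inhibitor that holds Dorsal in the cytoplasm (rank 441), pll, a kinase (1454, shared with TfIIA-L), Myd88, an adaptor (3754), and spz, the Toll ligand (4980). The cact summit lay 152 bp upstream of a TSS. In the BMP list they were those of shn, a zinc finger cofactor of Mad (3105), emc, a helix-loop-helix inhibitor (4195), tkv, a Dpp receptor (4524), and egr, a ligand of the tumour necrosis factor family (4921). Those of the neuroectoderm list were at aos (287) and spi (370), an inhibitor and a ligand of the epidermal growth factor receptor. Next in that list came territory summits at sim, the midline regulator (736), and pnt, an Ets factor (850). Those of the mesoderm list were at stumps (401), which acts downstream of the receptor encoded by htl, Poxm, a paired domain factor (703), Traf4 (1695) and if, an integrin subunit (3541). In each list a territory summit that was not at the gene's own promoter ranked above these promoter summits. The highest, in the same order of lists, were at wbl (174), ush (27), aos (187) and Mef2 (75). All but that of aos were nearer to the TSS of another gene.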

How the data were processed

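CG8388-GFP was profiled by ChIP-seq in 2 libraries. The deposited data are 4 narrowPeak lists on dm6: one for each replicate, one for both pooled, and one thresholded by the authors on irreproducible discovery rate. Peaks were called with a control alignment, per the file headers and notes deposited beside the lists. No source used here names the caller, aligner or threshold. Peaks were ranked within each list by the deposited signal, whose scale is not stated, and the deposited −log10 q-values entered no result. The replicate and pooled lists hold 30000 peaks each, and all 6075 thresholded peaks are the highest of the pooled list. The leading 6075 peaks of each replicate were used beside them. Peak lists carry no read totals, so depth is unknown. Intervals reflect only the error of counting.

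Summits were placed on Ensembl release 115 gene models, whose coordinates for all 10 genes equal those of RefSeq. Coordinates are 1-based. A territory is the gene and 5 kb to each side of each TSS. Each list was compared with all other protein-coding genes as shares, with Wilson 95% intervals from scipy 1.17.1, and no test over a gene list was made. The placing of summits was tested on simulated data. The Dorsal consensus comprised 2 degenerate forms. Named were all listed genes, every thresholded summit of each, and up to 4 genes of each further list by rank, promoter summits first. The printed sequences are the 8 highest territory summits outside an arm whose sequence is not reported here. The listed genes, further lists and rules were chosen with earlier results of these data known. Alternatives varied promoter and sequence windows, distances, thresholds and replicates.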

Additional observations from a re-analysis of the deposited data

How the results depend on the processing

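Of 43 alternative settings over 8 results, 34 stayed within the limits set (a factor of 1.5 for counts, the counting interval or SD for other values). The count of genes with a territory summit was 9 within 2 kb (32.6% of others) and 9 within 10 kb (63.4%), 6 above the median rank of the list (31.3%), 9 by peak interval (47.5%), 7 without replicate 2, 9 without replicate 3 and 8 without the distant twi TSS, so the gap to other genes varied with the distance. Promoter summits were found at 1 gene with a 250 bp window (15.9% of others), at 5 with a 1000 bp window (24.1%) and at 1 with only the most 5′ TSS (17.9%), and the single-replicate counts were 2 and 3. Non-promoter summits nearest to the gene were found at 5 genes with a 1000 bp window (12.1% of others), at 4 in the thresholded list above its median rank (8.51%), at 4 without replicate 2, and at 7 without replicate 3. Above the median rank, in a list shorter by construction, there were 9 territory summits, at 0.4 per 10 kb. The share of territory peaks found in both replicates was 93.8% when all 30000 peaks of each replicate were used. Leaving out replicate 2 gave 14 territory summits, 0.623 per 10 kb and 53 genes of the further lists with a territory summit, and leaving out replicate 3 gave 15, 0.667 and 50. No paired analysis was possible because the series has a single group. Peak lists limit what can be said of depth, and with no untagged embryos analysed here, the part of each signal that needs the tag was not tested.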
